A study of Mus musculus with 18 samples.

Results

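The miRNAs described here are the products of 4 hairpins that lie inside the Hox gene clusters of the mouse, Mir196a-1, Mir196a-2, Mir196b and Mir615. The 6 members were taken by name from the 1966 mature miRNAs of the deposited table, and they are mmu-miR-196a-5p, mmu-miR-196a-1-3p, mmu-miR-196a-2-3p, mmu-miR-196b-5p, mmu-miR-196b-3p and mmu-miR-615-3p. They were selected on the measured levels themselves, since the difference of miR-196a-5p between the tumor types and its low level in 1 TI library were known from an earlier analysis of the same values. The levels and differences of the members are therefore given as a description with no p-value. Adjusted p-values are printed only for the 5 other mature miRNAs of hairpins inside the Hox clusters. For the members, the number past the same threshold is printed once, beside that of all miRNAs.

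Small RNA was sequenced from 3 adrenal glands (AG, labelled CRE - and called wildtype by the study), 7 tumors of R26 IGF2BP1 mice (TI) and 8 tumors of R26 IGF2BP1/MYCN mice (TIM). The sources used here do not say that each library came from a separate mouse. The study counted as many IGF2BP1-induced tumors as tumor-bearing IGF2BP1 mice, but more tumors than animals for IGF2BP1/MYCN. The p-values thus measure the spread between libraries, some of which, mainly in TIM, may share an animal. The tumor mice carried an IGF2BP1 transgene without its own 3′ UTR at the Rosa26 locus. TIM mice carried IGF2BP1 on one Rosa26 allele and MYCN on the other, as the study reports no wildtype Rosa26 locus in them. The transgenes lay behind a loxP-flanked stop cassette, which an iCRE under the Dbh promoter opened in the adrenal gland and peripheral nerves. IGF2BP1 is an RNA-binding protein that stabilizes mRNAs, and MYCN is a transcription factor amplified in high-risk neuroblastoma. Of the TI libraries 6 were labelled IGF2BP1 +/+, CRE + and 1 IGF2BP1 +/-, CRE +, and all 8 TIM libraries were labelled IMP1/MYCN, CRE +, where IMP1 is another name of IGF2BP1. Of the TI libraries 1 came from a tumor of the adrenal gland and 6 were labelled only as tumor. Of the TIM libraries 2 came from the adrenal gland, 1 from the spine and 5 were labelled only as tumor. The columns of the table give the group but not the mouse, so the tumor site and the IGF2BP1 dose cannot be told apart from the library, and libraries are numbered here by column order only. The labels used here give no ages, and the controls are whole adrenal glands rather than the sympathoadrenal cells in which Dbh is active. The study reports a shorter median survival for IGF2BP1/MYCN mice than for homozygous IGF2BP1 mice. Age and genotype thus cannot be told apart in TIM against TI. The presence of MYCN and the lower IGF2BP1 copy number of TIM cannot be told apart either, since 6 TI libraries were labelled IGF2BP1 +/+.

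Hox genes are transcription factors that set position along the body axis, and their order on the chromosome follows the order in which they are used along the body. The miR-196 hairpins lie toward the posterior side of the Hox clusters beside Hox9 genes, and miR-196 is known to repress Hox mRNAs such as Hoxb8. miR-615 lies in the Hoxc cluster among its more anterior genes. Each hairpin is cut into a 5p and a 3p arm, and the arm that is loaded into Argonaute pairs with target mRNAs mainly through its seed, bases 2 to 8.

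In the RefSeq annotation of GRCm38.p6, the assembly also known as mm10, Mir196a-1 is at chr11:96265164-96265265 on the plus strand, 6064 bp from Hoxb9 and 68553 bp from Hoxb13. Mir196a-2 is at chr15:102973350-102973434 on the plus strand, 1451 bp from Hoxc10 and 3597 bp from Hoxc9. Mir615 lies on the same strand of the same cluster at chr15:103014910-103015001, within Hoxc5. Mir196b is at chr6:52230081-52230165 on the minus strand, 2710 bp from Hoxa9 and 1031 bp from Hoxa10. By gene name in the GENCODE annotation, Mir196a-1 was in an intron of Gm53, Mir196a-2 and Mir615 were in introns of Hoxc5, and Mir196b overlapped an exon of a Hoxa9 transcript on its own strand and an exon of Gm52902 on the other strand. All 6 members were matched to a mature RefSeq sequence. The sequences are shown because they decide which member can report on which hairpin, and capitals mark the seed.
mmu-miR-196a-5p, from Mir196a-1 and from Mir196a-2: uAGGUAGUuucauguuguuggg
mmu-miR-196b-5p, from Mir196b: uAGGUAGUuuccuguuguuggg
mmu-miR-196a-1-3p, from Mir196a-1: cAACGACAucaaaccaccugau
mmu-miR-196a-2-3p, from Mir196a-2: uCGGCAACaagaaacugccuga
mmu-miR-196b-3p, from Mir196b: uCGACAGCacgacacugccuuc
mmu-miR-615-3p, from Mir615: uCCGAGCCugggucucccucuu

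The 5p arms of miR-196a and miR-196b shared the seed AGGUAGU and differed by 1 substitution, A12C, counted from 1 at the 5′ end with the base of miR-196a first. No other miRNA among the 1675 of the table with a RefSeq sequence had this seed, and the other 4 members each had a seed that no other miRNA there carried. miR-196a-5p is the same RNA from both Mir196a hairpins, so its level is their sum, while the 3p arms differ in sequence and can be assigned to Mir196a-1 or Mir196a-2. How reads that match several hairpins were treated is not given in the sources used here, and a sequencing error that makes this substitution would turn a read of 1 form into the other.

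The libraries held between 21644743 and 23332704 reads on miRNAs in AG. The TI totals lay from 11802837 to 21268124 and the TIM totals from 11641696 to 23435621. Values are in CPM, reads scaled to a common library total that the authors had adjusted by the TMM factor of edgeR, and 3 reads were worth between 0.101 and 0.272 CPM. These limits and the intervals of shares given here cover counting error only. miR-148a-3p took from 30.1% to 61.9% of the reads in 6 TI libraries but 2.29% in TI library 5, and from 4.19% to 6.94% in AG. TIM libraries 3 and 6 had the largest TMM factors (1.80 and 1.85) and low read totals (12133274 and 11641696). Log2 fold changes are on the log2(CPM + 1) scale from limma, fitted to all 726 miRNAs that reached 1 CPM or more in 3 or more libraries, and this scale understates the change of miRNAs near or below 1 CPM. Of the 6 members 5 passed this filter, and miR-196b-3p did not.

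The members did not share a direction. Of the 5 members tested, 1 was called higher and 1 lower in TI than in AG at an adjusted p of 0.05 in limma. In this comparison 55.8% of all miRNAs tested were called. The groups of 1 member did not overlap, beside 46.4% of all miRNAs. In TIM against AG 3 of 5 were called, all lower, beside 51.4% of all miRNAs, and 2 of 5 had groups that did not overlap, beside 43.1%. In TIM against TI 2 of 5 were called, both lower, beside 5.23% of all miRNAs, and 0 of 5 had groups that did not overlap, beside 0.275%. The choice of members used these same comparisons, so nothing is read from the counts. The median log2 fold change of the tested members was 1.13 in TI against AG, -2.65 in TIM against AG and -1.47 in TIM against TI, beside -0.01, 0.18 and 0.06 over all 726 miRNAs.

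**Figure D1:**
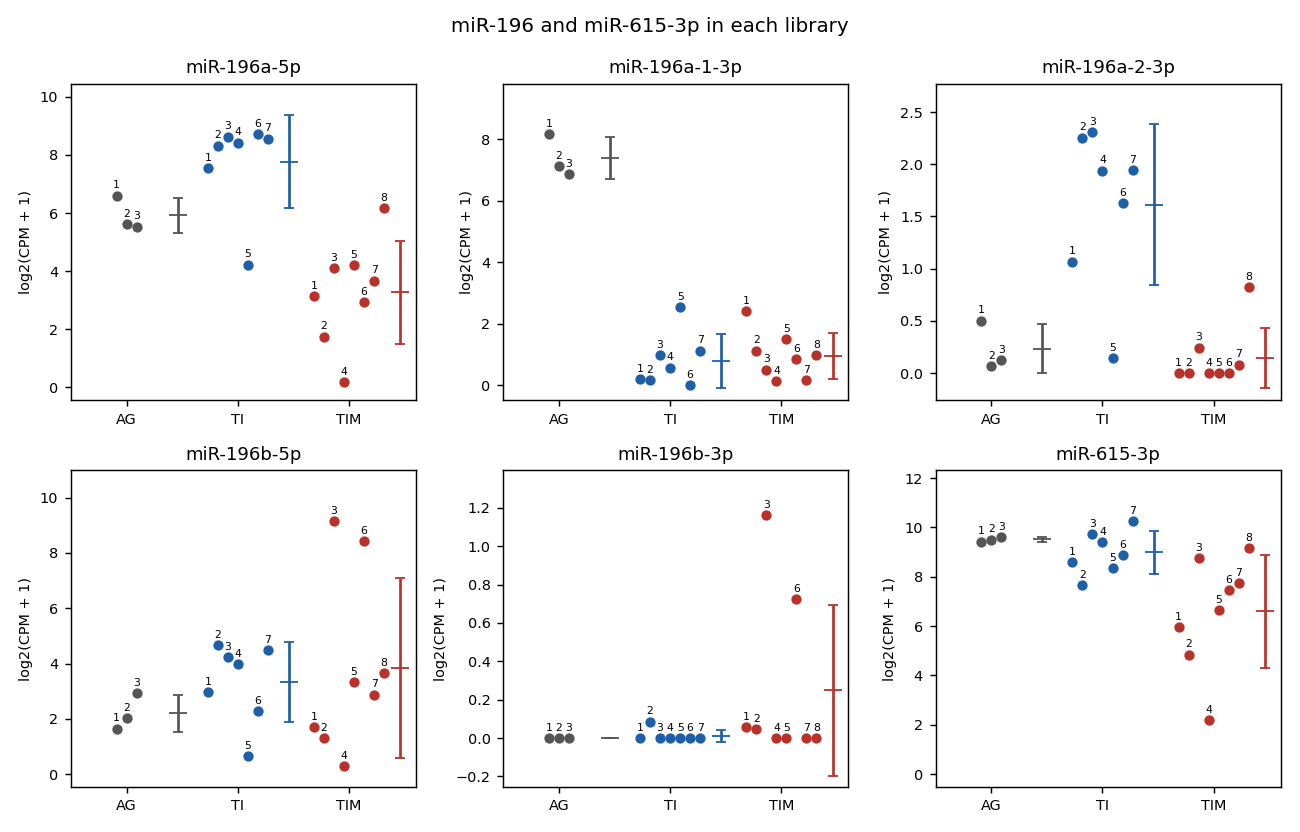
Levels of the 6 members on the log2(CPM + 1) scale in each library, by group, with points numbered by library in column order and bars for the mean ± SD of the group on this scale; the vertical axes differ between panels. miR-196a-5p is high in 6 of 7 TI libraries, miR-196a-1-3p is high only in the 3 AG libraries, and miR-196b-5p and miR-196b-3p are highest in TIM libraries 3 and 6.

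miR-196a-5p, the arm that carries the shared seed, was highest in TI, intermediate in AG and lowest in TIM. It stood at 95.8, 48.3 and 45.2 CPM in AG libraries 1 to 3, a mean of 63.1 ± 28.4 CPM (SD, n = 3). In TI its lowest value was 17.7 CPM, its median 341 CPM and its highest 417 CPM, with a mean of 293 ± 143 CPM (SD, n = 7). In TIM its lowest value was 0.134 CPM, its median 9.78 CPM and its highest 70.6 CPM, with a mean of 16.6 ± 22.6 CPM (SD, n = 8). Of the TI libraries 6 lay above every AG library, between 184 and 417 CPM, and TI library 5 lay below every AG library. Of the TIM libraries 7 lay below every AG library and below every TI library, and TIM library 8 was the exception in both comparisons. So the order of the means was TIM, AG, TI, but AG lay within the range of TI, and the ranges of TIM and AG overlapped through 1 TIM library.

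The log2 fold change of miR-196a-5p was 1.85 in TI against AG (standard error 1.01), -2.65 in TIM against AG (standard error 0.99) and -4.50 in TIM against TI (standard error 0.76). The ratio of the mean CPM was 4.64 for TI over AG and 17.6 for TI over TIM. The group means of the 2 tumor types were thus on opposite sides of that of the adrenal gland. AG still lay within the range of TI, and both comparisons share the same AG libraries. TI library 5 held much of the spread of its group, and without it the log2 fold change was 2.44 in TI against AG and -5.09 in TIM against TI. When totals excluded miR-148a-3p it was 2.38 in TI against AG and -2.18 in TIM against AG, and it kept its sign under every alternative tried. The sum of both 5p arms with this seed followed the same order except in TIM libraries 3 and 6. This sum was from 51.4 to 98.0 CPM in AG, was from 191 to 421 CPM in TI apart from 18.3 CPM in library 5, and was from 0.358 to 82.3 CPM in TIM apart from 584 and 350.0 CPM in libraries 3 and 6.

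The 3p arm of Mir196a-1 had another pattern from that of the shared 5p arm. miR-196a-1-3p was at 287, 138 and 116 CPM in the AG libraries, a mean of 181 ± 93.1 CPM (SD, n = 3), from 2508 to 6214 reads. In TI its lowest value was 0 CPM, its median 0.483 CPM and its highest 4.81 CPM, in TI library 5. In TIM its lowest value was 0.0895 CPM, its median 0.883 CPM and its highest 4.27 CPM, in TIM library 1. All 15 tumor libraries lay below every AG library, and the 2 tumor types covered nearly the same range. The log2 fold change was -6.59 in TI against AG (standard error 0.53), -6.44 in TIM against AG (standard error 0.52) and 0.16 in TIM against TI (standard error 0.40), and the last of these was -0.05 without TIM library 1. Since both tumor types hold few reads of it, with at most 109 in a library, the size of the fall depends on the pseudocount and was -4.85 in TI and -4.82 in TIM with a pseudocount of 5.

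The 3p arm of Mir196a-2 moved with the 5p arm in TI. miR-196a-2-3p was at 0.416, 0.0466 and 0.0925 CPM in AG, from 9, 1 and 2 reads. In TI its lowest value was 0.107 CPM, in library 5, its median 2.84 CPM and its highest 3.96 CPM, from 235 reads in all. In TIM it was at 0 in 5 of 8 libraries, where 3 reads would be worth from 0.101 to 0.140 CPM, and its highest value was 0.766 CPM in TIM library 8. Of the TI libraries 6 lay above every AG library and also above every TIM library, and TI library 5 did neither. The log2 fold change was 1.38 in TI against AG (standard error 0.35), -0.09 in TIM against AG (standard error 0.34) and -1.47 in TIM against TI (standard error 0.26). By edgeR on the recovered reads, which adds no pseudocount of 1 CPM, it was 3.72 in TI against AG and -4.34 in TIM against TI. The value in TIM against AG turned to 0.05 without AG library 1, and both groups there were near the level of a few reads.

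The pair of 3p arms gave shares of Mir196a-1 and Mir196a-2 among the 3p reads, which do not depend on how libraries are scaled. The 3p arms took a larger part of all miR-196a reads in AG than in every tumor library, as given below. These are thus shares of 3p reads, and how far they give the output of each hairpin was not tested. Of the reads of both 3p arms, miR-196a-1-3p had 99.9%, 99.97% and 99.9% in the AG libraries. In 6 TI libraries its share was between 0% and 29.3%, and the highest of these, in TI library 7, had a Wilson 95% interval of 19.2% to 42.0%. In TI library 6 it was 0 of 23 reads, which allows a share of up to 14.3% by the Wilson interval. TI library 5 stood apart at 97.8% (95% interval 92.4% to 99.4%), in this share close to AG rather than to its own group. Of all miR-196a reads in this library the 5p arm had 78.3%, which lay between AG and the other TI libraries. In TIM the share was 100% in 5 libraries and 69.2%, 66.7% and 56.0% in libraries 3, 7 and 8, from 13, 3 and 25 reads. The intervals were wide in libraries 3, 7 and 8 and reached down to 20.8% in library 7. In TIM library 4, with 2 such reads, the interval reached down to 34.2%. In TIM libraries 1, 2, 5 and 6 its lower end was 96.6%, 90.1%, 91.4% and 81.6%. Thus the 3p reads of miR-196a came almost wholly from Mir196a-1 in AG and mostly from Mir196a-2 in 6 of 7 TI libraries. In TIM the share of Mir196a-1 was at least 56.0% in every library, with few reads in libraries 3, 4, 7 and 8. The arms differ in sequence, and how well the library preparation captures each of them was not tested.

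The balance of 5p and 3p arms separated AG from all tumor libraries, which is another split than that of the 3p arms. Of the reads of miR-196a-5p and both miR-196a 3p arms, the 5p arm had from 25.0% to 28.0% in AG, and from 98.8% to 99.5% in 6 TI libraries. It had 78.3% in TI library 5, and from 60.0% to 98.6% in TIM. In AG the 3p arm of Mir196a-1 was more abundant than the 5p arm of both hairpins together, and in every tumor library the 5p arm was the more abundant, with only 5 such reads in TIM library 4.

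**Figure D2:**
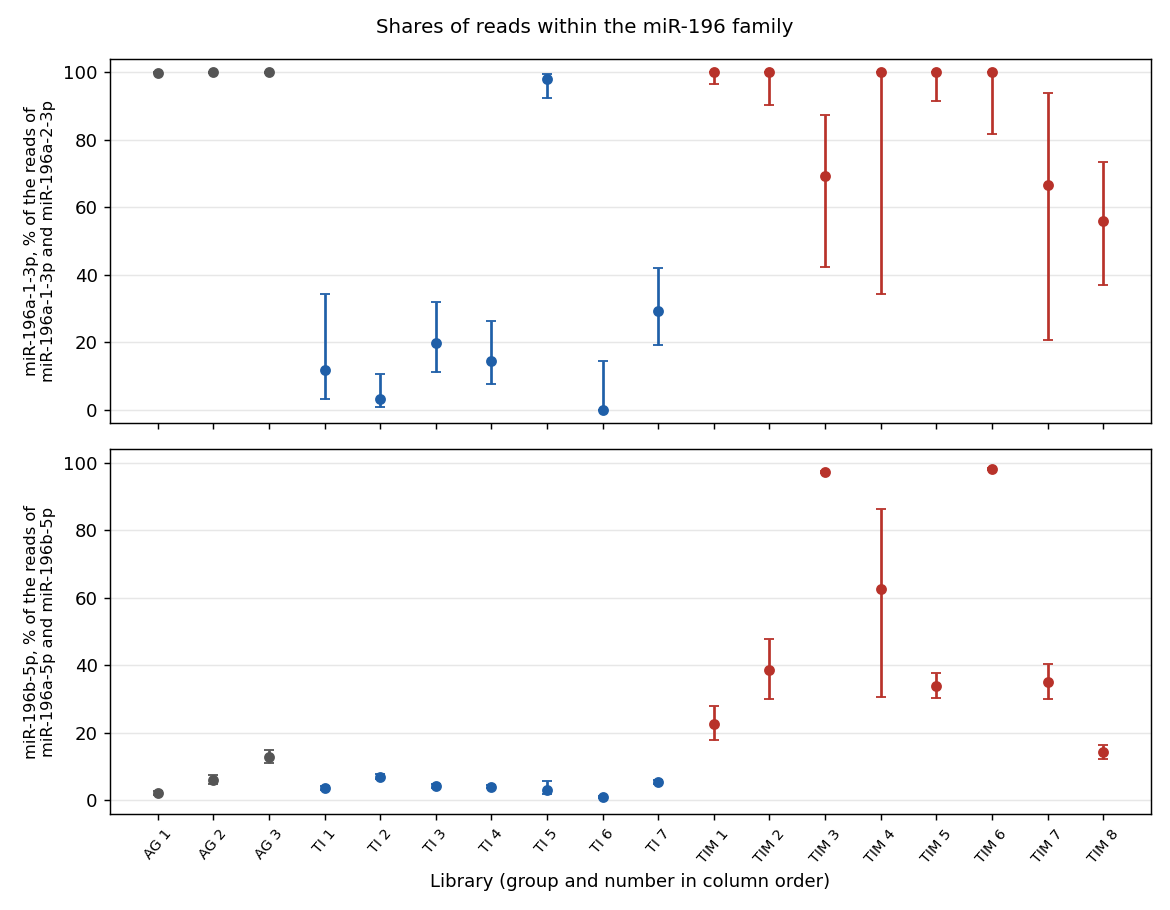
Shares of reads within the miR-196 family in each library, with Wilson 95% intervals for counting error: above, miR-196a-1-3p in percent of the reads of miR-196a-1-3p and miR-196a-2-3p; below, miR-196b-5p in percent of the reads of miR-196a-5p and miR-196b-5p. In the upper panel TI library 5 lies at 97.8% and the other TI libraries at or below 29.3%, and in the lower panel TIM libraries 3 and 6 lie at 97.2% and 98.1%.

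miR-196b-5p, the product of the Hoxa cluster with the same seed, was low in most libraries and very high in 2 TIM libraries. It was at 2.13, 3.08 and 6.62 CPM in AG. In TI its lowest value was 0.588 CPM, in library 5, its median 14.7 CPM and its highest 24.2 CPM. In TIM its lowest value was 0.224 CPM, its median 7.65 CPM, and its highest values were 568 CPM in library 3 and 343 CPM in library 6, from 12371 and 7385 reads. The other 6 TIM libraries lay between 0.224 and 11.7 CPM, inside or below the range of TI, so the range within TIM covered a factor of 2537. The TIM mean of 118 ± 217 CPM (SD, n = 8) rested on those 2 libraries, and the mean of TI was 12.8 ± 9.12 CPM (SD, n = 7).

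For miR-196b-5p the log2 fold change was 1.13 in TI against AG (standard error 1.52), 1.64 in TIM against AG (standard error 1.49) and 0.52 in TIM against TI (standard error 1.14). Without TIM libraries 3 and 6, a choice made once their levels were known, the value was -0.0050 in TIM against AG and -1.13 in TIM against TI. Leaving out only library 3 or only library 6 gave -0.24 and -0.14 in TIM against TI, and edgeR, which weighs the 2 high libraries by their counts, gave 4.90 in TIM against AG and 3.25 in TIM against TI. Groups overlapped in all 3 comparisons, and the order of the group means is that of 2 libraries rather than of the group. As a share of both 5p arms with this seed, miR-196b-5p had from 2.17% to 12.8% in the AG libraries, and in the TI libraries it ran from 0.927% to 7.05%. It had from 14.2% to 62.5% in 6 TIM libraries, where miR-196a-5p was low, and 97.2% and 98.1% in libraries 3 and 6. TIM libraries 3 and 6 also had the largest TMM factors and low read totals, as given with the depths, and the part of those in the level was not tested, while the share within a library does not use them.

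miR-196b-3p, the other arm of Mir196b, was at 0 reads in all 3 AG libraries, where 3 reads would be worth from 0.139 to 0.140 CPM. It had 1 read in TI, in library 2. In TIM it had 43 reads, of which 27 were in library 3 (1.24 CPM) and 14 in library 6 (0.651 CPM). The 2 libraries high in the 5p arm were thus those with nearly all reads of the 3p arm.

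miR-615-3p, the main product of the Hoxc5 hairpin, was similar among the adrenal glands and low in TIM. It was at 687, 723 and 776 CPM in AG, a mean of 729 ± 44.5 CPM (SD, n = 3). In TI its lowest value was 203 CPM, its median 474 CPM and its highest 1224 CPM, with a mean of 590.4 ± 354 CPM (SD, n = 7). In TIM its lowest value was 3.58 CPM, its median 137 CPM and its highest 574 CPM, with a mean of 197 ± 203 CPM (SD, n = 8). All 8 TIM libraries lay below every AG library, and 5 of them below every TI library as well. Of the TI libraries 2 lay above every AG library and 5 below, so AG lay within the range of TI. TI library 5, at 326 CPM, was within the range of the other TI libraries, unlike for the 4 other members that passed the filter, in each of which it was the lowest or the highest of TI.

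For miR-615-3p the log2 fold change was -0.53 in TI against AG (standard error 1.04), -2.92 in TIM against AG (standard error 1.02) and -2.39 in TIM against TI (standard error 0.78). TIM library 4, the lowest in miR-196a-5p and miR-196b-5p too, contributed to the size, and without it the value was -2.29 in TIM against AG and -1.76 in TIM against TI. By edgeR the value was -1.86 in TIM against AG and -1.54 in TIM against TI. When totals excluded miR-148a-3p the value in TI against AG was 0.0008, so no direction is given for it. The 3p arm held from 99.1% to 100% of the reads of this hairpin in every library, and miR-615-5p did not exceed 4.85 CPM.

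**Figure D3:**
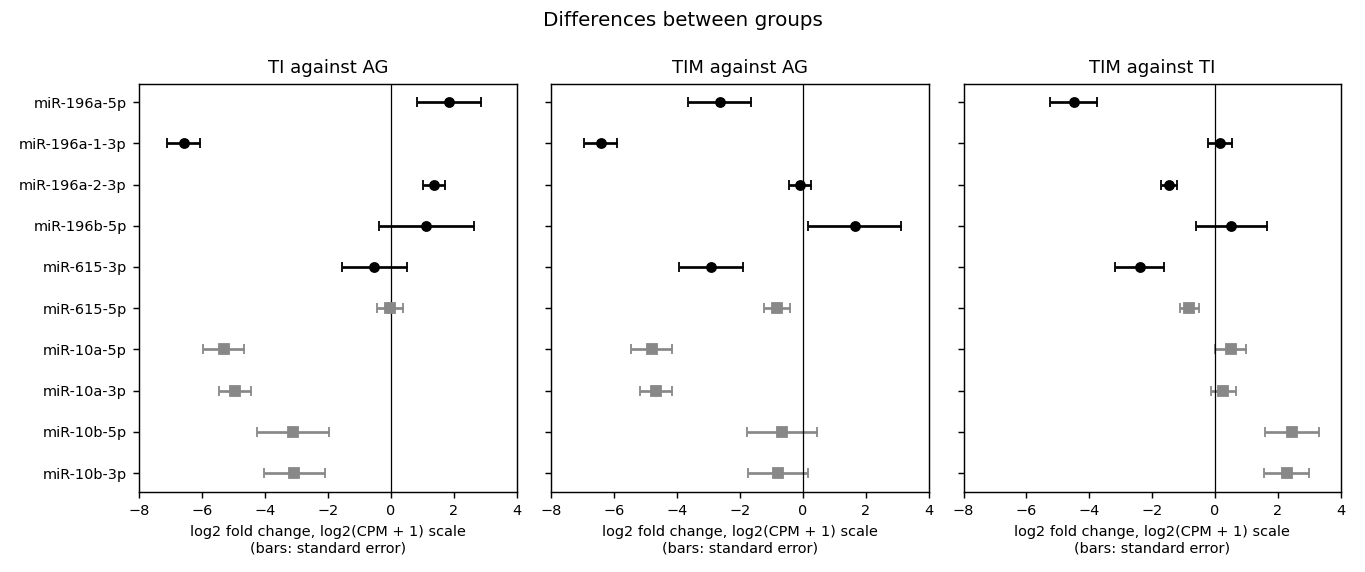
Log2 fold changes on the log2(CPM + 1) scale with standard errors for the 5 members that passed the filter (black circles) and the 5 other miRNAs of the Hox clusters (grey squares), for TI against AG, TIM against AG and TIM against TI. miR-196a-5p has values of 1.85, -2.65 and -4.50 from left to right, and miR-196a-1-3p has values of -6.59, -6.44 and 0.16.

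The order of the libraries was compared between members within each tumor type, as a description over values that share depth and scaling. Spearman's rho of miR-196a-5p with miR-615-3p was 0.64 over the 7 TI libraries and 0.81 over the 8 TIM libraries, and that of miR-196a-5p with miR-196a-2-3p was 0.54 and 0.68. For miR-196a-2-3p with miR-615-3p, the members made only from the Hoxc cluster, it was 0.39 and 0.87. Every rho of miR-196a-2-3p over TIM rests on 16 reads in all, in 3 of 8 libraries, with the others tied at 0. The Hoxa product miR-196b-5p went along as closely in some pairs, with 0.86 over TI and 0.55 over TIM for miR-196a-2-3p, 0.21 and 0.83 for miR-615-3p, and 0.21 and 0.64 for miR-196a-5p. Spearman's rho of miR-196a-5p with miR-196a-1-3p, the arm specific to the Hoxb hairpin, was -0.36 over TI and 0.29 over TIM. miR-196a-1-3p was instead ordered like miR-10a-3p, the product of another Hoxb hairpin, with a rho of 0.75 over TI and 0.79 over TIM. This order rests on 0 to 90 reads of miR-196a-1-3p in a TI library and 2 to 109 in a TIM library. It was compared only with members and other Hox miRNAs, so whether the likeness is particular to the Hoxb cluster was not tested. TIM library 4 was the lowest TIM library and TIM library 8 the highest for both miR-196a-5p and miR-615-3p. Levels of different miRNAs within a library are not compared beyond arms of this family, since capture differs between sequences.

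**Figure D4:**
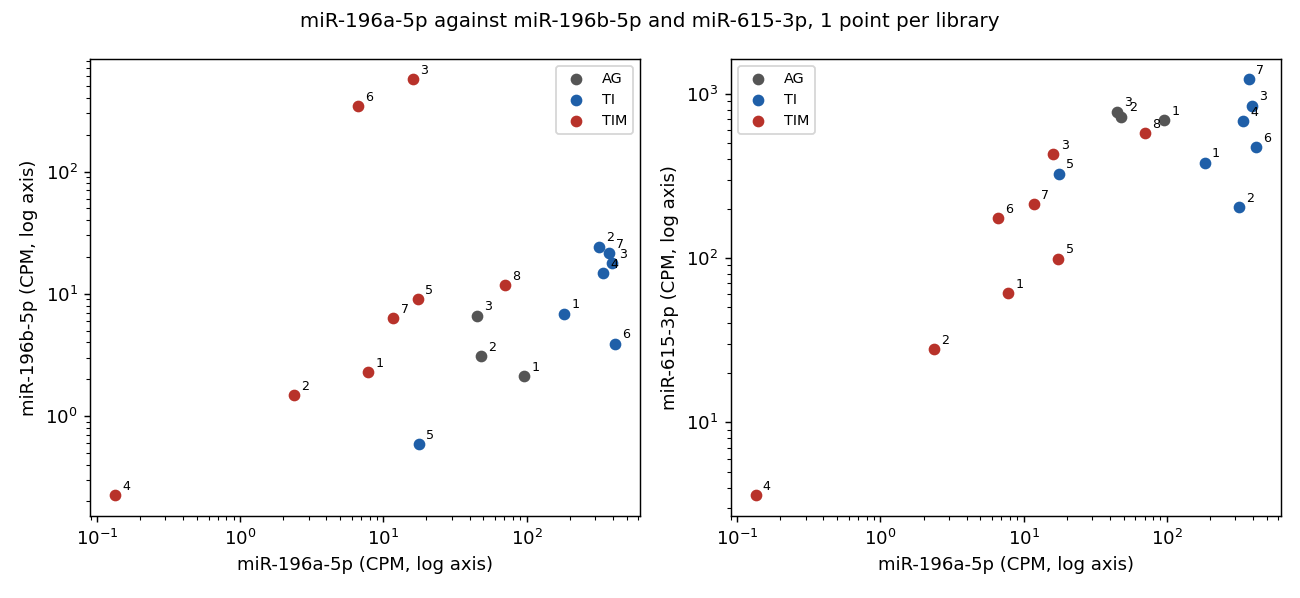
Level of miR-196b-5p (left) and miR-615-3p (right) against miR-196a-5p in each library, in CPM on log axes, with points numbered by library in column order and coloured by group. On the left TIM libraries 3 and 6 lie at 568 and 343 CPM of miR-196b-5p with 16.2 and 6.60 CPM of miR-196a-5p, and on the right TIM library 4 lies lowest on both axes.

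Among 452 other miRNAs whose mean reached 10 CPM in a group, those whose order over the 18 libraries was most like that of miR-196a-5p were let-7i-3p (rho 0.71), miR-16-5p (0.65), miR-148a-3p (0.64), miR-503-5p (0.63) and miR-28a-3p (0.63). The likeness was in part that of the group means. Within TI rho was 0.64, -0.11, 0.36, 0.96 and -0.21 for these miRNAs in the same order, and within TIM it was 0.55, 0.02, 0.62, -0.17 and 0.24. Only let-7i-3p and miR-148a-3p of the 5 were above 0.3 in both tumor types, and miR-148a-3p is also the miRNA with the largest share of reads in most TI libraries.

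The 5 other mature miRNAs of the Hox clusters come from Mir10a, within Hoxb3, from Mir10b, within Hoxd3 and Hoxd4, and from the 5p arm of Mir615. The miR-10 family lies beside the Hox4 genes, anterior to miR-196. Of these 5, 4 were lower in TI than in AG and 0 were higher, 2 were lower in TIM than in AG and 0 were higher, and 0 differed between TIM and TI at an adjusted p of 0.05 by limma. Over all miRNAs tested the share called in either direction was 55.8%, 51.4% and 5.23% in these comparisons, with 213 of 726 lower in TI and 188 of 726 lower in TIM than in AG, and nothing particular to the list is read from its counts. In TIM against TI 3 of 5 had an unadjusted p under 0.05 by limma, and edgeR called 0 and DESeq2 called 1 at an adjusted p of 0.05. The median log2 fold change of the 5 was -3.12 in TI against AG, -0.84 in TIM against AG and 0.50 in TIM against TI. These miRNAs were also listed with earlier results of these values known. miR-615-5p shares its hairpin with the member miR-615-3p, with a rho of 0.50 over TI and 0.98 over TIM. Its p-values are thus not free of the choice of that member.

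**Figure D5:**
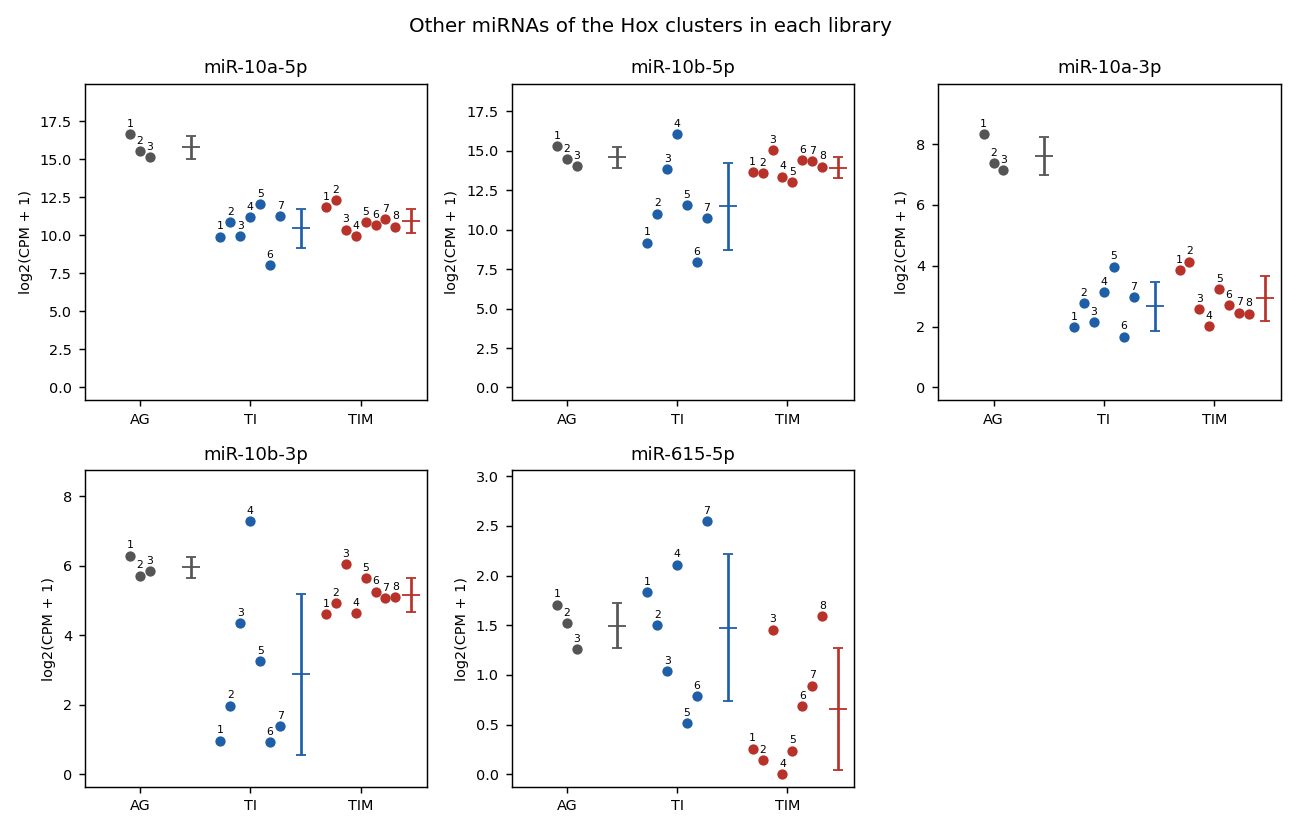
Levels of the 5 other miRNAs of the Hox clusters on the log2(CPM + 1) scale in each library, by group, with points numbered by library in column order and bars for the mean ± SD of the group; the vertical axes differ between panels. Both arms of miR-10a lie below AG in all 15 tumor libraries, and both arms of miR-10b are highest in TI library 4.

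Both arms of miR-10a, the miRNA of the same Hoxb cluster as Mir196a-1, fell in both tumor types. miR-10a-3p was at 319, 165 and 141 CPM in AG. It did not exceed 14.7 CPM in any TI library or 16.6 CPM in any TIM library. All 15 tumor libraries lay below every AG library. By limma it fell by 4.95 on the log2 scale in TI (adjusted p = 4.05e-07, standard error 0.52), and in TIM it fell by 4.69 (adjusted p = 8.00e-07, standard error 0.51). miR-10a-5p likewise fell by 5.32 on the log2 scale in TI (adjusted p = 2.76e-06, standard error 0.66), and in TIM it fell by 4.81 (adjusted p = 7.47e-06, standard error 0.64), by the same limma fit. The fall of miR-10a is thus given beside that of miR-196a-1-3p, whose log2 fold changes were -6.59 and -6.44.

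Both arms of miR-10b, from the Hoxd cluster, were lower in 6 of 7 TI libraries than in every AG library, and TI library 4 was above them, with 155 CPM of the 3p arm. The log2 fold change of miR-10b-3p in TI against AG was -3.07 (standard error 0.96, adjusted p = 0.012 from limma) and that of miR-10b-5p was -3.12 (standard error 1.13, adjusted p = 0.026 from limma). Neither call held with edgeR on the recovered reads, where the adjusted p was 0.28 and 0.34, or without AG library 1, where limma gave 0.051 and 0.11. The call for miR-10b-5p was also lost without AG library 2 (0.061), with DESeq2 (0.33), with no filter (0.084), with only both groups compared in the fit (0.075) and with totals that excluded miR-148a-3p (0.051). Over all alternatives the adjusted p ran from 7.10e-05 to 0.28 for miR-10b-3p and from 0.0011 to 0.34 for miR-10b-5p. In TIM against AG the log2 fold change was -0.79 for miR-10b-3p (adjusted p = 0.50 from limma) and -0.66 for miR-10b-5p (adjusted p = 0.64 from limma). In TIM against TI it was 2.28 and 2.45 (adjusted p = 0.059 and 0.085 from limma), and without TI library 4 both passed, with an adjusted p of 0.0025 and 0.0050. Over all alternatives the adjusted p of this comparison ran up to 0.69 and 0.71. The log2 fold change of miR-615-5p was -0.02 in TI against AG, -0.84 in TIM against AG and -0.82 in TIM against TI (adjusted p = 0.98, 0.094 and 0.11 from limma). Without TIM library 8 it passed in TIM against AG (adjusted p = 0.0497), and over the alternatives this p ran up to 0.32.

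Marker miRNAs of other cell types moved with the comparison of tumors and adrenal gland. In bulk tissue, fewer cells of a type and less RNA per cell cannot be told apart. The summed level of 2 endothelial markers was from 38529 to 46092 CPM in AG, from 1704 to 6736 CPM in TI and from 2428 to 8943 CPM in TIM, all tumors below AG, as for miR-196a-1-3p and miR-10a. The summed level of 7 epithelial markers was from 2832 to 4850 CPM in AG and at most 2035 CPM in TI and 1000 CPM in TIM, that of 4 leukocyte markers was from 414 to 602 CPM in AG and at most 333 and 212 CPM, and that of the liver marker miR-122-5p was from 780 to 2592 CPM in AG and at most 48.1 and 82.4 CPM. The 5 markers of smooth muscle and fibroblasts summed to at least 124324 CPM in every AG library, with a highest sum of 210988 CPM. They ran from 16134 to 171667 CPM across TI, with library 5 the highest, and from 16240 to 101974 CPM across TIM. TI library 5 was the highest TI library also in the sum of the 7 neuronal and neuroendocrine markers, at 275655 CPM, where AG had from 49808 to 117317 CPM and TIM from 45867 to 263214 CPM. The sum of 4 skeletal muscle markers was at most 344 CPM in AG and TI and was 22980 CPM in TIM library 1, the highest TIM library in miR-196a-1-3p, and the sum of 2 erythroid markers overlapped between all groups. No marker was at 0 in every library. The part of these cell types in the levels of the members was not tested.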

How the data were processed

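Small RNA reads of 18 libraries were trimmed with cutadapt 2.8, aligned with Bowtie2 2.3.5.1 to mm10, counted with featureCounts 2.0.0 and normalized with edgeR 3.40, per the study and the submitters' processing notes. The deposited signal of each mature miRNA is a CPM value that the authors scaled by the TMM factor of the library. The authors also deposited log2 fold changes, p-values and FDR values of their edgeR comparisons, which were not used. Divided by what 1 read was worth in its library, 100% of the values came out whole (within 0.001 read), and the recovered reads gave the depths, the shares and the count-based alternatives.

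Differences came from limma 3.58.1 in R 4.3.3 (lmFit, eBayes with trend) on log2(CPM + 1), over all 18 libraries together, for miRNAs that reached 1 CPM or more in 3 or more libraries, with p-values adjusted by Benjamini-Hochberg over 726 miRNAs. The script was tested on simulated data. The miRNAs named were the 6 members, the other miRNAs of hairpins inside Hox clusters, and the 5 most like miR-196a-5p by Spearman's rho. The members and lists were chosen with earlier results of these data known. Alternatives were pseudocounts of 0.1 and 5, other scalings, other filters, a fit of the 2 groups compared, edgeR 4.0.16 and DESeq2 1.42.0 on the reads, and leaving out every library singly. Hairpin positions and mature sequences are those of RefSeq for GRCm38.p6, and introns and exons were looked up by gene name in GENCODE. No pair of libraries was identical.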

Additional observations from a re-analysis of the deposited data

Results flagged for a closer look

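In 22 sets of 7 or 8 libraries with a spread, the gap of the extreme library to its nearest neighbour was divided by the range. This ratio was compared with Dixon's 95% critical value, and 7 exceeded it, each at the highest library. The rate of 1 in 20 (1.1 of 22) holds for normal, independent values. The values here are CPM not on a log scale, some at 0, and arms of the same hairpin are counted separately. No excess over chance is therefore read from this count. Among TI libraries the ratio was 0.755 for miR-196a-1-3p in library 5 (4.81 CPM). It was 1.0 for miR-196b-3p in library 2, which rests on 1 read (0.0609 CPM). It was 0.879 for miR-10b-3p (155 CPM) and 0.784 for miR-10b-5p (67849 CPM), both in TI library 4. Among TIM libraries the ratio was 0.753 for miR-196a-5p in library 8 (70.6 CPM) and 0.760 for miR-196a-2-3p in the same library (0.766 CPM, from 11 reads). It was 0.584 for miR-196a-1-3p in TIM library 1 (4.27 CPM), the library with the high sum of skeletal muscle markers. The pair of TIM libraries high in miR-196b-5p is not among these, since each is near the other and the gap to the nearest library is then small.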

How the results depend on the processing

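miR-196a-5p kept its sign in TI against AG under 20 of 20 alternatives (1.64 to 2.44), in TIM against AG under 22 of 22 (-3.06 to -1.86) and in TIM against TI under 26 of 26 (-5.09 to -3.87). Signs turned for miR-615-3p in TI against AG when totals excluded miR-148a-3p (0.0008), for miR-196a-2-3p in TIM against AG without AG library 1 (0.05), for miR-196a-1-3p in TIM against TI without TIM library 1 (-0.05) and for miR-196b-5p in TIM against TI without TIM library 3 (-0.24), without TIM library 6 (-0.14) or without both (-1.13), where it was -0.0050 in TIM against AG. The 4 calls for the arms of miR-10a against AG held under every alternative tried. Of the 5 other Hox miRNAs, 2 were called in TI against AG by edgeR, and 2 to 4 when 1 library was left out. In TIM against TI 2 were called without the TMM factor, 1 with miR-148a-3p left out, 1 by DESeq2, and 0 to 2 when 1 library was left out. miR-615-5p turned positive in TI against AG with a pseudocount of 5 (0.0285), with miR-148a-3p left out (0.34), by edgeR (0.18) and by DESeq2 (0.14), and ran from -0.20 to 0.14 when 1 library was left out. The number of all miRNAs called in TIM against AG ran from 227 to 383 when 1 library was left out. The 38 called in TIM against TI became 21 with a pseudocount of 5, 155 without the TMM factor, 21 with no filter, 17 with a minimum of 10 CPM, 23 when a fit held the 2 groups alone, 3 by edgeR, 123 by DESeq2, 18 without TIM libraries 3 and 6, and 24 to 68 when 1 library was left out. Omitting the TMM factor moved the median of all miRNAs by -0.19, 0.31 and 0.50 in TI against AG, TIM against AG and TIM against TI, and leaving out miR-148a-3p moved it by 0.48, 0.55 and 0.07. The higher share of calls in TIM against TI was 65.8%, and 89.0% without the TMM factor or 50.9% with median ratio scaling. In TIM against AG it was 49.6%, and 59.4% without the factor or 66.4% without miR-148a-3p, which gave 59.7% in TI against AG where the main value was 47.4%. The cause of these changes was not tested. No paired analysis was possible because no column names its mouse or number. With 3 AG libraries, and with 0 to 11 reads of miR-196a-2-3p in AG and TIM libraries, small differences in that arm were not detectable at this depth.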
